A study of Bos taurus with 4 samples.

Results

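The genes described here are *ASIP* and *MCHR1* with 5 other genes of the melanocortin pathway, *ATRN*, *MGRN1*, *MC1R*, *MC4R* and *POMC*, in the skeletal muscle of bulls. *ASIP* and *MCHR1* were chosen by their measured difference between the channels of these same arrays, and the others were taken with them as genes of the pathway, so the ratios of all 7 are a description and none of them was tested as evidence. Every probe whose reference accession named 1 of the genes was kept, which gave 15 of the 43653 probes on the array and 7 of the 11054 genes with a probe. The muscle was *m. semitendinosus*, a hind-limb muscle, of untreated bulls aged 15 months of the Hereford (HER) breed, a beef breed, and the Holstein-Friesian (HF) breed, a dairy breed. RNA of 4 HER and 4 HF bulls was hybridised in pairs, 1 bull of each breed per array, to 4 dual-colour Agilent bovine arrays on 1 slide, with 1 breed in the green dye Cy3 and the other in the red dye Cy5. Visible fat and connective tissue had been removed, and RNA was taken from the whole muscle piece.

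By the sample labels Cy3 held HER and Cy5 held HF, but the labels also carry a remark on swapped dyes, and the signs of the study's own gene lists run the other way, with Cy5 as HER. The breed direction was therefore not settled, and all values are given as log2(Cy5/Cy3). A value below 0 is a higher level in HER by the dye labels and in HF by the study's lists. All 4 arrays had the same orientation, so that dye and breed cannot be told apart.

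Melanocortins are short peptides cut from proopiomelanocortin, the product of *POMC*. They bind G protein-coupled receptors that raise cAMP, among them MC1R, which in pigment cells turns on black pigment, and MC4R, which in the hypothalamus lowers food intake. Agouti signalling protein, the product of *ASIP*, is a secreted antagonist of these receptors, and it needs the membrane protein attractin (*ATRN*) and the ubiquitin ligase mahogunin (*MGRN1*) to act on pigment. MCHR1 is the receptor of melanin-concentrating hormone, a hypothalamic peptide that promotes feeding and opposes melanocortins.

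On each array the median signal was 129 to 160.5 in Cy5 and 77 to 138 in Cy3, over a local background of 37 to 41, and no spot was saturated. Muscle genes were measured as the tissue label has it: all 9 fibre markers on the array passed the filter on dim probes, which asked for a signal well above background in the same channel on all 4 arrays. None of them was called, a call being a Benjamini-Hochberg adjusted p under 0.05 in limma's moderated test over 32606 probes. An unadjusted p under 0.05, which 28.3% of all 9425 genes tested had, was found for 2 of the 9, *CKM* and *TNNT3*, the 2 genes that the separate-channel fit called. *CKM*, the muscle creatine kinase, stood at 0.36 ± 0.18 on the log2(Cy5/Cy3) scale (SD, n = 4; adjusted p = 0.0911 in limma). *TNNT3*, the fast troponin T, stood at -0.69 ± 0.38 (SD, n = 4; adjusted p = 0.0636 in limma). With median centring of each array in place of loess, *CKM* was called, at 1.35 (adjusted p = 0.00262 in limma), and *TNNT3* was at 0.27. The slow-fibre markers varied most between arrays: on arrays 1 to 4 *MYH7* had log2 ratios of 2.16, -1.02, -0.04 and -0.25, and *TNNT1* 2.02, -0.91, -0.85 and -1.21. The sum of the fibre markers' channel levels was 1404109 to 1702099 in Cy5 and 1296921 to 1532011 in Cy3.

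*ASIP* had 2 probes. The scanner signals of probe A_73_P437651 on arrays 1 to 4 were 5135, 3382.5, 4123 and 2007.5 in Cy5 and 1972.5, 2711, 3961 and 6154 in Cy3. Before normalization Cy5 was thus the brighter channel on 3 arrays and Cy3 on array 4. Loess, which centres the ratios of equally bright spots of an array on 0, gave log2 ratios of -0.11, -1.58, -0.98 and -2.14, with a mean of -1.20 ± 0.87 (SD, n = 4), or 2.30-fold more in Cy3. The ratio was below 0 on 4 of 4 arrays after loess, and on array 1 it lay close to 0. With median centring of each array in place of loess, which moved the median of all tested probes to 0.24, the mean was -0.53 and the ratio on array 1 was 0.72. In the normalized channels, the log2 levels on the 4 arrays were 11.97, 10.93, 11.37 and 10.33 in Cy5 and 12.08, 12.50, 12.35 and 12.47 in Cy3. The Cy3 samples lay within a narrow range (SD 0.19), the Cy5 samples were spread (SD 0.69), and the channels did not overlap.

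Probe A_73_107408 of *ASIP* had signals of 51, 49, 49 and 51 in Cy5, against local backgrounds of 41.5, 36, 40 and 37, and of 116, 93, 175 and 276.5 in Cy3. It was well above background in Cy3 on 4 of 4 arrays and in Cy5 on 0 of 4, although the weaker flag for a positive and significant signal was set in both channels on 4 of 4. The log2 ratios were -1.46, -1.08, -1.89 and -2.07, with a mean of -1.63 ± 0.45 (SD, n = 4), and Cy3 was the higher channel on every array. Since Cy5 was not well above background on any array, this ratio is only a bound: the mean log2 level was 7.56 ± 0.42 in Cy3 and 5.93 ± 0.09 in Cy5. The Cy3 level was at least 3.07-fold higher than a floor for Cy5. On each array that floor was the lowest Cy5 level that counts as above background, or the probe's own Cy5 level where higher. With no offset added to the dim channel, its mean was -3.85 by plain subtraction and -4.77 from the scanner-processed signals, so neither the size of its ratio nor the order of the arrays is measured.

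**Figure D1:**
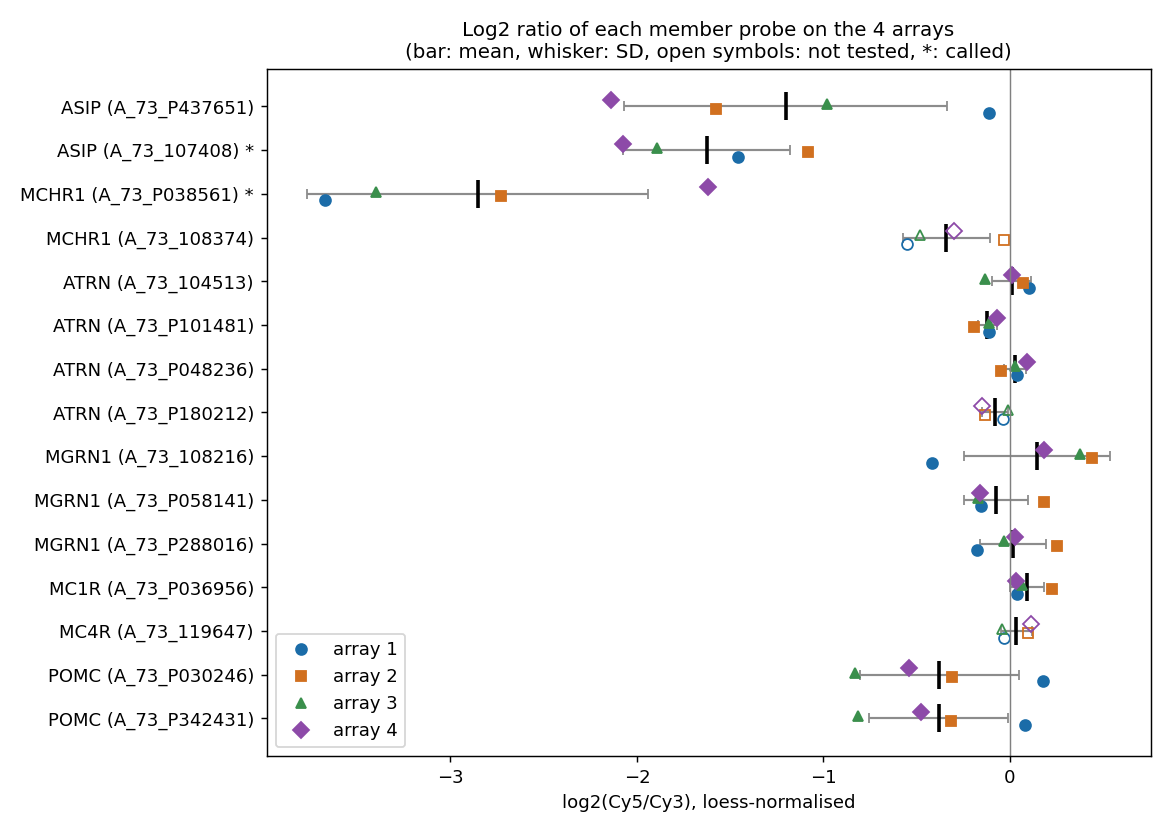
Log2(Cy5/Cy3) after loess of the 15 probes, 1 row each, with a symbol per array, a bar for the mean and whiskers for the SD (n = 4). Open symbols are probes that did not pass the filter on dim probes and asterisks mark the called probes. Both *ASIP* probes and *MCHR1* probe A_73_P038561 lie below 0 on all 4 arrays, between -3.67 and -0.11, while the means of the other tested probes lie between -0.38 and 0.15.

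*MCHR1* also had 2 probes. Probe A_73_P038561 had signals of 124, 110, 112.5 and 149.5 in Cy5 and 769.5, 323, 799 and 431.5 in Cy3, and was well above background in both channels on 4 of 4 arrays. The Cy3 signal was higher than the Cy5 signal on every array before any normalization. After loess the log2 ratios were -3.67, -2.73, -3.40 and -1.62, with a mean of -2.86 ± 0.92 (SD, n = 4), or 7.24-fold more in Cy3, and 1 of the 32606 tested probes had a lower mean. The log2 levels were 6.90, 6.44, 6.56 and 7.00 in Cy5 and 10.58, 9.17, 9.96 and 8.61 in Cy3. The channels did not overlap, and here the spread lay in the Cy3 samples (SD 0.86) and not in the Cy5 samples (SD 0.26), unlike the *ASIP* probe A_73_P437651. Array 4 had the smallest *MCHR1* ratio and the largest ratio of *ASIP* A_73_P437651.

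The other *MCHR1* probe, A_73_108374, did not pass the filter. It had signals of 60.5, 51, 57 and 54.5 in Cy5 and 67, 54, 82 and 75.5 in Cy3, and was well above background on 3 of 4 arrays in each channel. Its log2 ratios of -0.55, -0.03, -0.48 and -0.30 (mean -0.34 ± 0.23, SD, n = 4) were below 0 as for the first probe, but the channels overlapped. The 2 *MCHR1* probes differed by -2.51 ± 0.82 (SD, n = 4) in log2 ratio. With no offset added to dim signals, the mean of A_73_108374 was -1.01 by plain subtraction and -1.57 from the scanner-processed signals. That of A_73_P038561 was then -3.68 and -3.82. The size of the ratio of the dim probe A_73_108374 thus depends on the offset. In RNA of a whole muscle piece, fewer cells that make a transcript and less of it per cell cannot be told apart, for these and for all genes below.

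**Figure D2:**
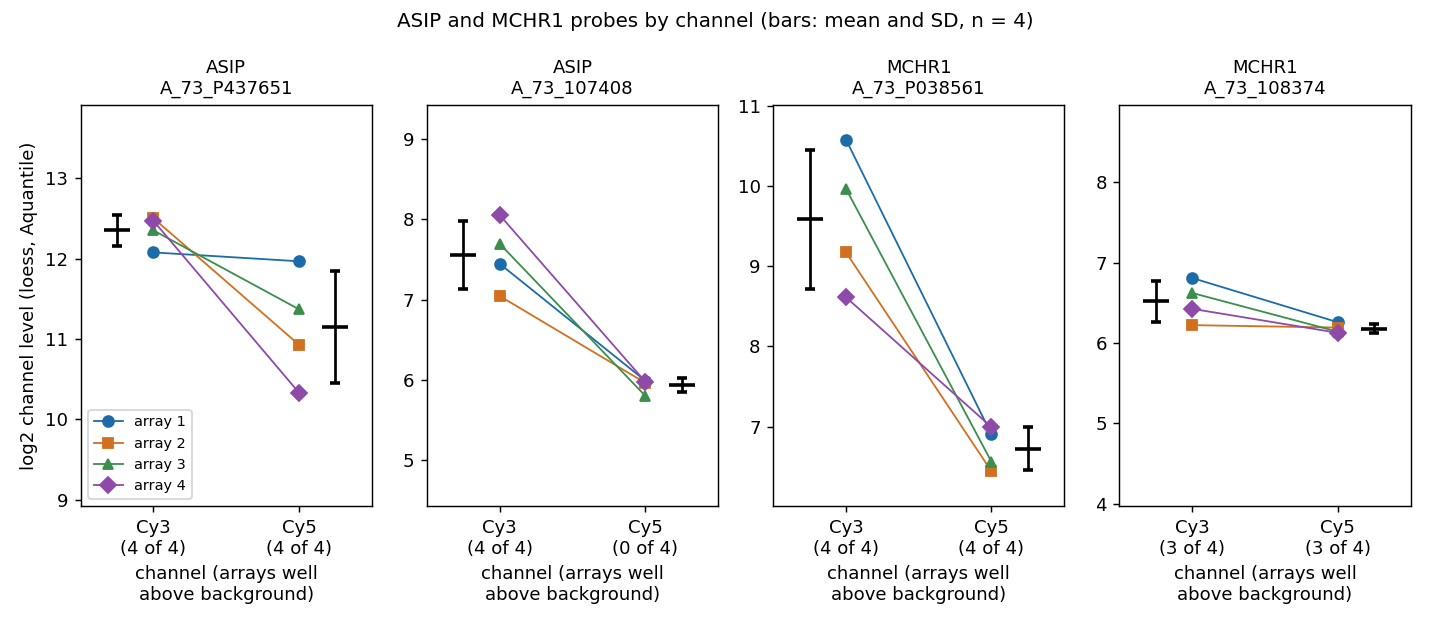
Normalized log2 level of each *ASIP* and *MCHR1* probe in Cy3 and Cy5, with a line per array, black bars for the mean and SD (n = 4), and under each channel the number of arrays on which the probe was well above background. All panels span the same number of log2 units, but levels are to be compared within a panel and not between probes. For *ASIP* probe A_73_P437651 the lines fan out towards Cy5, and for *MCHR1* probe A_73_P038561 they converge towards Cy5.

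*ATRN*, the membrane protein that agouti signalling needs, had 4 probes, of which 3 passed the filter. Probe A_73_104513 had log2 ratios of 0.10, 0.07, -0.14 and 0.01 (mean 0.01 ± 0.10, SD, n = 4), and probe A_73_P048236 had 0.04, -0.05, 0.03 and 0.09 (mean 0.03 ± 0.06, SD, n = 4). The latter was well above background on 4 arrays in Cy5 but on 1 array in Cy3. Probe A_73_P101481 was below 0 on 4 of 4 arrays, at -0.11, -0.19, -0.11 and -0.07 (mean -0.12 ± 0.05, SD, n = 4), with overlapping channels. After loess with the offset, the ratios of the 3 probes thus lay between -0.19 and 0.10 on every array. With median centring A_73_104513 and A_73_P048236 changed sign, to -0.04 and -0.28. The signals were dim, and the scanner-processed signals, without the offset, gave a wider range. There A_73_P048236 lay between -0.46 and 0.83, and the means of A_73_P101481 and A_73_104513 were -0.64 and -0.15. Probe A_73_P180212, well above background on 1 array in each channel, was not tested and had a mean of -0.08 ± 0.07 (SD, n = 4).

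The 3 probes of *MGRN1*, which encodes mahogunin, were well above background in both channels on 4 of 4 arrays. Probe A_73_108216 had log2 ratios of -0.42, 0.44, 0.38 and 0.18 (mean 0.15 ± 0.39, SD, n = 4), probe A_73_P058141 had -0.15, 0.18, -0.17 and -0.16 (mean -0.07 ± 0.17, SD, n = 4), and probe A_73_P288016 had -0.17, 0.25, -0.03 and 0.03 (mean 0.02 ± 0.18, SD, n = 4). Array 1 was below 0 and array 2 above 0 at all 3 probes, and each mean was smaller than its SD. Median centring moved the means to 0.76, 0.15 and -0.11, so that the latter 2 changed sign, and A_73_108216 was called there.

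Of the receptors, *MC1R* was measured and *MC4R* was not. *MC1R* had 1 probe, A_73_P036956, well above background in both channels on all 4 arrays, with log2 ratios of 0.04, 0.23, 0.07 and 0.03 (mean 0.09 ± 0.09, SD, n = 4). It was above 0 on 4 of 4 arrays, also with median centring (0.10), while its channels overlapped. The *MC4R* probe A_73_119647 was well above background on 0 of 4 arrays in both channels, with signals of 41 to 47 in Cy5 and 45 to 56.5 in Cy3, so no ratio is read from it.

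*POMC*, the precursor of the ligands, had 2 probes, both well above background in both channels on 4 of 4 arrays. Probe A_73_P030246 had log2 ratios of 0.18, -0.31, -0.83 and -0.54 (mean -0.38 ± 0.43, SD, n = 4) and probe A_73_P342431 had 0.08, -0.32, -0.82 and -0.48 (mean -0.38 ± 0.37, SD, n = 4). The 2 probes differed by at most 0.09 on any array, and both were above 0 on array 1 and below 0 on the others. With median centring both means were above 0, at 0.23 and 0.18, so the direction of *POMC* depends on the normalization.

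Of the 15 probes, 12 passed the filter and 2 were called, *ASIP* A_73_107408 and *MCHR1* A_73_P038561. Over the whole array 1078 of 32606 probes, 3.31%, were called. Nothing is read from the members' count, since these genes were chosen by the same contrast. Of the 12 probes 4 were below 0 and 1 above 0 on all 4 arrays, where 32.8% of all probes had 1 direction throughout, and 3 had channels without overlap, where 14.2% of all probes did. The probes without overlap were the called pair and the other *ASIP* probe, which the separate-channel fit also called. When any 1 array was left out, neither probe was called and 5 to 115 probes were called over the whole array. The mean log2 ratio without 1 array was -1.81 to -1.48 for *ASIP* A_73_107408 and -3.27 to -2.58 for *MCHR1* A_73_P038561. The test named in the methods, which takes each probe's spread on its own, called 0 of 32606 probes after adjustment. With the study's threshold, p of at most 0.05 unadjusted plus a 1.3-fold change, it called 2887 probes and the same pair among the members.

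A list of 82 other genes of these pathways had 58 on the array, of which 43 passed the filter, each taken at its brightest probe. By limma's adjusted p, 1 of the 43 was lower in Cy5 and none higher, against 1.52% lower and 2.91% higher of all 9425 genes tested, and 6 had an unadjusted p under 0.05, against 28.3% of all genes. The separate-channel fit called 2, where it called 3199 probes over the whole array, and the methods' test 0 after adjustment. The median log2 ratio of the 43 genes was 0.00, and that of all genes 0.02.

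The gene called was *PDE4B*, a phosphodiesterase that breaks down cAMP, the second messenger of melanocortin receptors. Its log2 ratios were -0.82, -0.53, -0.81 and -1.42, with a mean of -0.90 ± 0.38 (SD, n = 4; adjusted p = 0.0439 in limma). Its other probes were at -0.68 to -0.42. It was no longer called in any fit of 3 arrays, with an adjusted p of 0.0814 to 0.120, without the filter on dim probes (0.0530), and with median centring, at a log2 ratio of -0.41 and an adjusted p of 0.180. *PDE8A*, another cAMP phosphodiesterase, had -0.73 ± 0.35 (SD, n = 4) with an adjusted p of 0.0554 in limma. It was called with the stricter filter (adjusted p = 0.0494 in limma) and with the trend and robust prior (0.0464), and with median centring it was at -0.09 (0.692). The other tested genes of cAMP and G protein signalling lay between -0.51 and 0.39.

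None of the 5 measured genes of the ligands, their processing enzymes and antagonists was called in limma, nor by the separate-channel fit or the methods' test. An unadjusted p under 0.05, against 28.3% of all genes, was found for 1, *PRCP*. *PRCP*, a peptidase that inactivates a melanocortin, had -0.26 ± 0.04 (SD, n = 4; adjusted p = 0.0966 in limma), below 0 on 4 of 4 arrays, but 0.26 with median centring. *AGRP*, the relative of *ASIP* that blocks MC4R in the hypothalamus, had log2 ratios of -0.27, -0.20, -1.42 and -0.09, or -0.50 ± 0.62 (SD, n = 4; adjusted p = 0.257 in limma). All 4 values were below 0, and most of the mean came from array 3. The convertase genes *PCSK1* and *PCSK2*, whose enzymes cut the *POMC* product into peptides, were well above background on 0 of 4 arrays in both channels, as was *CARTPT*.

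No receptor of the list was measured: *MC2R* and *MC5R* were well above background on 0 of 4 arrays, and *MRAP2*, which encodes an accessory protein of melanocortin receptors, on 3 of 4 at most. *PMCH*, the gene of the MCHR1 ligand, was likewise well above background on 0 of 4 arrays in both channels. Of the neuropeptide genes beside it, *HCRT* (orexin) had 0.28 ± 0.45 (SD, n = 4; adjusted p = 0.385 in limma) and *NPY* 0.01 ± 0.18 (SD, n = 4; adjusted p = 0.967 in limma). In the list of relatives and partners of attractin and mahogunin, *ITCH*, another ubiquitin ligase, had 0.21 ± 0.19 (SD, n = 4; adjusted p = 0.259 in limma) and *TSG101*, an endosomal sorting gene, -0.07 ± 0.09 (SD, n = 4; adjusted p = 0.621 in limma). *ITCH* also lies near *ASIP* and is counted again, at the same probe, among its neighbours below. With median centring *HCRT*, *ITCH* and *TSG101* were called, at 0.95, 0.67 and 0.64, so that *TSG101* changed sign. In limma after loess none of these 4 genes was called or had an unadjusted p under 0.05. Neither the separate-channel fit nor the methods' test called them.

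Of 18 melanocyte and pigment genes 14 were on the array and 9 passed the filter, with a median log2 ratio of 0.00. In limma 0 of the 9 were called, and 2 had an unadjusted p under 0.05, against 28.3% of all genes. The separate-channel fit called 1, *KIT*. *KIT*, a receptor tyrosine kinase of melanocyte precursors and mast cells, had 0.55 ± 0.27 (SD, n = 4; adjusted p = 0.0629 in limma), above 0 on 4 of 4 arrays, and was well above background on 4 arrays in Cy5 but 2 in Cy3. In fits of single probes it was called by adjusted p in 6 alternatives, among them plain subtraction at 1.15 (adjusted p = 0.0283 in limma) and the scanner-processed signals at 2.04 (0.0224). The series table, also among the 6, holds the same ratios as the scanner-processed signals. *KIT* also passed the study's threshold, and its other tested probe was at 0.23. *TYRP1*, an enzyme of black pigment, was well above background on 4 arrays in Cy5 and on 0 of 4 in Cy3, so that only a bound was measured. It was at least 1.27-fold higher in Cy5, with mean log2 levels of 6.46 in Cy5 and 6.10 in Cy3 and an adjusted p of 0.163 in limma. Plain subtraction called it at 1.22 and the scanner-processed signals and the series table at 1.92, while with median centring it was at 0.01. *TYR*, *MLANA* and *SLC24A5*, which define pigment cells, were well above background on 0 of 4 arrays in both channels. Other genes of the list were detected: *PMEL* was well above background on 3 arrays in Cy5 and 1 in Cy3. *DCT* and *MITF* were so on 4 arrays in both channels, with mean log2 ratios of 0.00 and -0.20. The summed level of the 9 genes was 1929 to 2313 in Cy5 and 1987 to 2283 in Cy3.

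**Figure D3:**
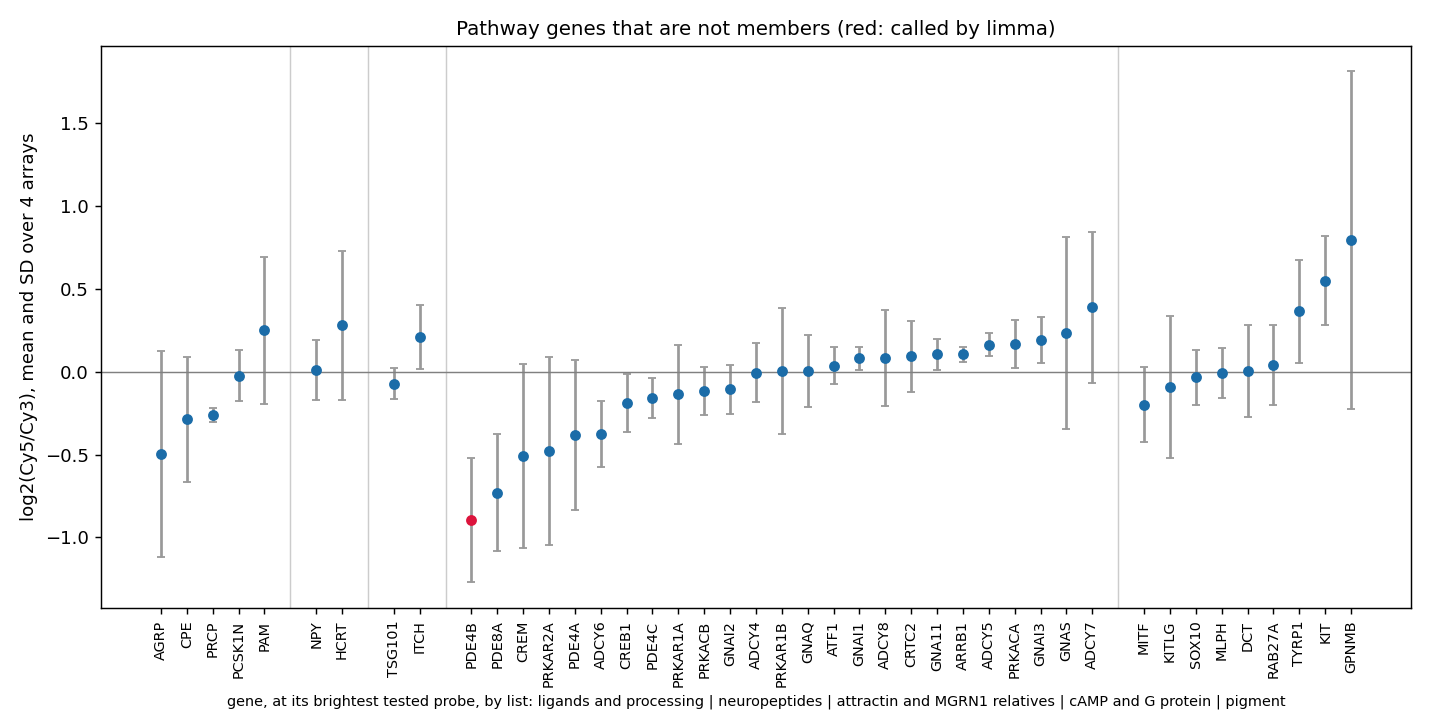
Mean log2(Cy5/Cy3) with SD (n = 4 arrays) of the 43 measured pathway genes that are not members, each at its brightest probe, in 5 lists separated by grey lines and sorted by the mean within each list. The 1 gene called by limma, *PDE4B* at -0.90, is red. The other means lie between -0.73 and 0.79, on both sides of 0.

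The neighbours of *ASIP* and *MCHR1* on their chromosomes were taken from the order of genes in the RefSeq annotation of assembly ARS-UCD2.0, 5 protein-coding genes on each side. Next to *ASIP* 9 of 10 genes were measured, and 0 were called in limma. At an unadjusted p under 0.05 there were 2, *ZNF341* and *AHCY*, against 28.3% of all genes. The separate-channel fit and, after adjustment, the methods' test called 0, and the study's threshold took in 1, *AHCY*. *AHCY*, the gene directly after *ASIP*, which encodes the enzyme that hydrolyses S-adenosylhomocysteine, had log2 ratios of -0.75, -1.10, -0.12 and -0.65, or -0.66 ± 0.41 (SD, n = 4; adjusted p = 0.0784 in limma). It was below 0 on 4 of 4 arrays, its other probes were at -0.75 to -0.57, and with median centring it was at 0.04. On the other side, the zinc finger gene *ZNF341* had the smallest p, at -0.27 ± 0.20 (SD, n = 4; adjusted p = 0.164 in limma).

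Next to *MCHR1* 6 of 10 genes were measured. In limma 0 were called, 0 had an unadjusted p under 0.05, against 28.3% of all genes, and 0 were called by another test. The smallest p were those of *ADSL*, an enzyme of purine synthesis, at 0.24 ± 0.31 (SD, n = 4; adjusted p = 0.314 in limma) before *MCHR1*, and of the aminopeptidase gene *XPNPEP3* at 0.20 ± 0.16 (SD, n = 4; adjusted p = 0.241 in limma) after it. The means of the 15 measured neighbours of both genes lay between -0.66 and 0.24. Median centring called 8 of the 15, at log2 ratios of 0.48 to 0.91, together with 10725 probes over the whole array.

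**Figure D4:**
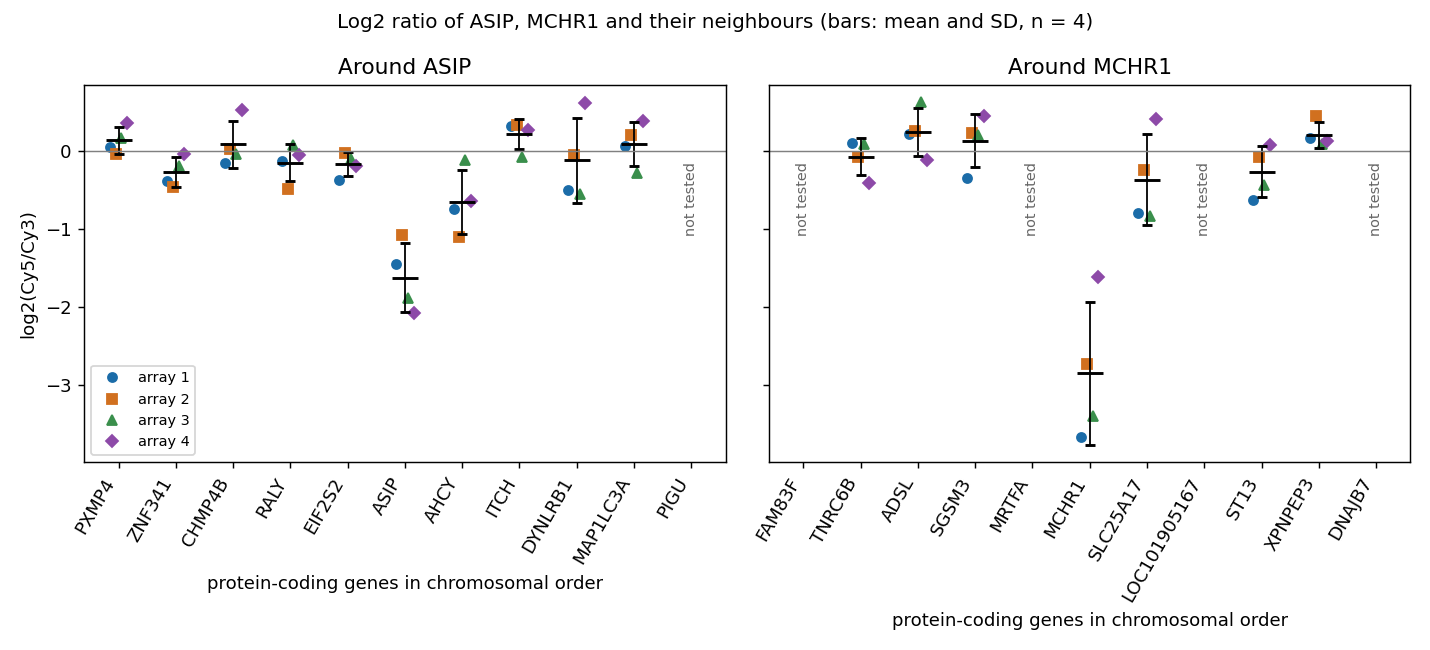
Log2(Cy5/Cy3) of *ASIP* (probe A_73_107408), *MCHR1* (probe A_73_P038561) and the 5 protein-coding genes on each side in chromosomal order, with a symbol per array and black bars for the mean and SD (n = 4). Genes without a probe past the filter are marked as not tested. *AHCY*, beside *ASIP*, lies lowest of the measured neighbours, at -0.66, and the others lie between -0.37 and 0.24.

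By the Euclidean distance between the 4 ratios of a probe and those of *MCHR1* A_73_P038561, out of 19142 probes, the genes most like *MCHR1* were *METTL21E*, a methyltransferase gene (1.62), the collagen genes *COL3A1* (2.02) and *COL1A1* (2.08), *FGF18*, a fibroblast growth factor gene (2.65), and *EXTL1*, an exostosin-like gene (2.70). *METTL21E* had the same mean of -2.86, but on arrays 1 to 4 it had -4.00, -1.80, -2.85 and -2.78 and so lacked the small ratio of *MCHR1* on array 4. It was first or second with plain subtraction, median centring and the scanner-processed signals too, while *EXTL1* was among the nearest 5 in none of these. The nearest genes of *ASIP* A_73_107408 turned on the offset added to its Cy5 signal and on the normalization. With the offset and loess they were *COL1A1*, *COL3A1*, *EXTL1*, *CHRNG* and *SPARC*, a matrix glycoprotein gene. *CHRNG* encodes the fetal gamma subunit of the acetylcholine receptor of muscle. With the offset and median centring they were *CHRNG*, *TPPP2*, *CHN1*, *COL3A1* and *COL1A1*. With plain subtraction *METTL21E* and *MCHR1* came first. *CHRNG* was among the nearest 5 of *ASIP* in each of these 4 settings, and the collagens were so with the offset alone, under loess or median centring. Each gene stands here by its nearest probe alone. Beside those near *ASIP* under loess, other *EXTL1* probes had means of -0.80 to 0.03, the other *CHRNG* probe -0.50, and other *COL1A1* probes -2.05 to -0.54. Other *SPARC* probes were at -1.40 to -1.29. *FGF18* was not called (adjusted p = 0.0641 in limma).

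Some markers of other cells also differed between the channels. Of 5 fibroblast markers 2 were called lower in Cy5, against 1.52% of all genes, *COL1A1* at -2.05 ± 0.67 (SD, n = 4; adjusted p = 0.0290 in limma) and *COL3A1* at -1.68 ± 0.67 (SD, n = 4; adjusted p = 0.0368 in limma). The other markers were not called, and they lay on both sides of 0, with *LUM* at -0.77 ± 0.49, *DCN* at 0.42 ± 0.50 and *PDGFRA* at 0.49 ± 0.56 (SD, n = 4). With median centring *DCN* and *PDGFRA* were called higher in Cy5, at 1.24 and 1.06, and *LUM* was at -0.15. *COL1A1* and *COL3A1* stayed called there, at -1.32 and -0.90. The summed level of the fibroblast markers was 29208 to 50146 in Cy5 and 43047 to 83508 in Cy3. Of 10 adipocyte markers *PNPLA2*, a triglyceride lipase, was called higher in Cy5, against 2.91% of all genes, at 1.08 ± 0.44 (SD, n = 4; adjusted p = 0.0418 in limma), while *FABP4* was at -1.19 ± 1.06 (SD, n = 4; adjusted p = 0.129 in limma). The other 9 were not called, and the median log2 ratio of the 10 was -0.14, on the other side of 0 from *PNPLA2*. With median centring *PNPLA2* was called at 1.80, and *FABP4* was at -0.82. The summed level below is of all 10 adipocyte markers. Their summed level was 11557 to 21094 in Cy5 and 10049 to 13206 in Cy3. That sum is weighted towards *PNPLA2*, the brightest of them, at mean log2 levels of 13.15 in Cy5 and 12.07 in Cy3. The calls of *COL1A1* and *PNPLA2* held in no fit of 3 arrays, and that of *COL3A1* in 1 such fit, without array 2 (adjusted p = 0.0405 in limma). The part of these cells in the *ASIP* and *MCHR1* ratios was not tested.

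Schwann cell markers had 5 measured genes and those of skin and hair follicle 3. In limma 0 of both lists were called. An unadjusted p under 0.05 was found for 2 of the 5 Schwann cell genes, against 28.3% of all genes. Among the 2 was *S100B* (-0.55 ± 0.46, SD, n = 4, and 0.04 with median centring). Neither the separate-channel fit nor the methods' test called a gene of the lists. In the skin list the smallest p were those of *DSP* (0.43 ± 0.52, SD, n = 4) and *KRT5* (-0.04 ± 0.05, SD, n = 4). Their summed levels were 2427 to 5989 and 2767 to 4202 in Cy5, and 3551 to 4717 and 2787 to 3788 in Cy3. The skin keratin gene *KRT10* was well above background on 0 of 4 arrays in both channels.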

How the data were processed

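Muscle RNA of 4 HER and 4 HF bulls was measured on 4 dual-colour Agilent arrays, which replicates 1 to 4 name, 1 bull of each breed per array. Arrays of the LIM breed were not analysed here. Intensity values came from the deposited scanner files. Per the file headers, Feature Extraction 10.7.3.1 gave the median signal and median local background of each spot and flagged outliers and signals well above background. The deposited series table held log10 values, the Cy5 to Cy3 ratios of the processed signals (background-subtracted and dye-normalized), equal to those in the scanner files (largest difference 0). The authors' methods name GeneSpring and a t-test and give no normalization.

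Median signals were corrected by normexp with an offset of 50, which pulls ratios of dim spots towards 0. Arrays were normalized by loess (control and outlier spots at weight 0), outlier spots, 7 to 14 on each array, were dropped, and replicate spots were averaged. Channel levels came from loess followed by Aquantile, which gives the arrays 1 distribution of mean brightness. Probes well above background in the same channel on all 4 arrays, with values on at least 3, were tested against 0, two-sided, with limma 3.58.1 in R 4.3.3 (statmod 1.5.0), with calls at 0.05 after Benjamini-Hochberg adjustment. The procedure was tested on simulated data, with changes set only in probes well above background in both channels on all 4 arrays. Probes dim in 1 channel were thus not covered. The number of arrays limits the precision.

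Probes were named through their reference accession in the RefSeq genes of assembly ARS-UCD2.0 (23492 probes matched 1 symbol). Members and gene lists were chosen with earlier results of these data known. The text names all members, up to 4 called genes per list with the smallest p or otherwise the 2 with the smallest p, called neighbours or otherwise the 1 with the smallest p on each side, and the 5 nearest patterns. Genes not above background that define a list are named besides, as are some others of a list that limit its reading. A marker gene that this rule would name is not reported here. Alternatives were no background correction, plain subtraction, median centring, the series table, the scanner-processed signals, dropping the filter or asking for both channels on all arrays, an intensity trend with robust prior, a separate-channel fit, the methods' t-test, the mean over probes and leaving out each array. Nearest patterns under other scalings were added after seeing the data. No probe, promoter or protein sequences were used here.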

Additional observations from a re-analysis of the deposited data

Results flagged for a closer look

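Of 35 sets of 4 values checked, the ratio and both channel levels of the members' probes among them, 4 had an array whose gap to the nearest other array, divided by the range of all 4, was above Dixon's critical value for 4 values, which chance passes in about 1 of 20 sets. At *MGRN1* probe A_73_P058141 the share was 0.954: the log2 ratio of array 2 was 0.18 and those of the others were -0.17 to -0.15. At *MC1R* probe A_73_P036956 it was 0.833 for the log2 ratio, with array 2 at 0.23 and the others at 0.03 to 0.07, and 0.895 for the Cy3 level, with array 1 at 7.23 and the others at 6.80 to 6.84. At *ATRN* probe A_73_P048236 it was 0.887 for the Cy3 level, with array 2 at 6.39 and the others at 6.27 to 6.29, on a channel well above background on 1 array.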

How the results depend on the processing

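The mean *ASIP* and *MCHR1* ratios kept their sign under every alternative run. The ratio of *ASIP* A_73_107408 was -3.85 with plain subtraction. There the floor was the probe's own Cy5 level, so its bound, 3.85 on the log2 scale, only repeats the ratio. With the scanner-processed signals and with the series table the *ASIP* ratio was -4.77, and that of *MCHR1* A_73_P038561 was -3.82. In these 3 settings no offset is added to the dim channel. Both probes were called in each alternative except the stricter filter, which left out the *ASIP* probe, the adjusted t-test and the 3-array fits. The number of probes called, 1078, was 10725 with median centring, 1666 with trend and robust prior, 3199 in the separate-channel fit, 2887 by the study's criterion, 0 by the adjusted t-test and 5 to 115 without 1 array. Pathway genes called, 1, became 2 without background correction, with the stricter filter, in the separate-channel fit and by the mean over probes, 3 with plain subtraction, the series table, the scanner-processed signals, trend and robust prior and the study's criterion, 18 with median centring, and 0 without a filter, by the adjusted t-test and without any 1 array. Neighbours called, 0, became 8 with median centring and 1 by the study's criterion. The causes were not tested. The ratio within each array is itself the paired comparison of its 2 bulls. Dim signals limit at least *MC4R*, *MCHR1* A_73_108374, *ASIP* A_73_107408 and the *ATRN* probes, among them A_73_P180212 and A_73_P048236.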
